A study of Mus musculus with 4 samples.

Results

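The genes described here are the transforming growth factor beta (TGF-β) ligands *Tgfb1*, *Tgfb2* and *Tgfb3*, the receptors *Tgfbr1* and *Tgfbr2*, the intracellular proteins *Smad3* and *Smad7*, and the secreted target *Tgfbi*. They were taken by name from both gene expression matrices and are 8 of 32287 gene features. All 8 were measured in both conditions. Their levels were followed across cell classes of the mouse spinal cord, with and without injury.

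The study tested a pool of barcoded enhancer viruses in astrocytes of the injured cord. Adult Cx30-tdTomato mice of both sexes carried a tamoxifen-inducible Cre under Cx30, a gap junction gene used to label astrocytes, and a tdTomato Cre reporter. Both groups received tamoxifen by mouth and the enhancer AAV library by vein. The injured group was sampled 3 days after a thoracic contusion, and the uninjured group had no contusion. Segments of 5 mm around the lesion, or at the matching level, were dissociated with papain, and tdTomato-positive cells were sorted for 10x 3' sequencing. The cords were cleared of meninges. Animals were pooled within each condition, so there was 1 gene expression library per condition. The libraries of amplified enhancer barcodes were not used here. With 1 library per condition no test between conditions was possible. Every interval below is a 95% interval for counting error only and does not cover variation between animals. PCR copies were collapsed by molecular identifiers (UMIs).

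TGF-β ligands are secreted in a latent form and act, once released, on a receptor made of type II (*Tgfbr2*) and type I (*Tgfbr1*) chains. The type I chain phosphorylates *Smad3* and its partner *Smad2*, which enter the nucleus with *Smad4* and change transcription. *Smad7* is an inhibitory member that is itself a target of the signal. In the injured cord the pathway is known for its part in scar formation, matrix deposition and the restraint of microglia, which depend on TGF-β for their homeostatic state.

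The promoters of 3 members are shown because the results below turn on them: a ligand with its highest level in microglia-like cells (*Tgfb1*), a ligand highest in value in endothelial-like and astrocyte-like cells (*Tgfb2*) and a target highest in fibroblast-like cells (*Tgfbi*). Each run is 250 bases before to 50 bases after the RefSeq start on GRCm38.p6, 5′ to 3′ on the gene's strand, and capitals mark the motifs found. *Tgfb1* is at chr7:25686752-25687051 on the plus strand, *Tgfb2* at chr1:186705940-186706239 on the minus strand and *Tgfbi* at chr13:56609336-56609635 on the plus strand.
Tgfb1: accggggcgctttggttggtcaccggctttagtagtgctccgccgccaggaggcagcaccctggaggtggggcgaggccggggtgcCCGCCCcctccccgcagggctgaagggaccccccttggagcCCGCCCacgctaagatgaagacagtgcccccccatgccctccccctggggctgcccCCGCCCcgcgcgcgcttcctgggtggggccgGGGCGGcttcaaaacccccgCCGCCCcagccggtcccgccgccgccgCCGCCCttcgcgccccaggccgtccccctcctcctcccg
Tgfb2: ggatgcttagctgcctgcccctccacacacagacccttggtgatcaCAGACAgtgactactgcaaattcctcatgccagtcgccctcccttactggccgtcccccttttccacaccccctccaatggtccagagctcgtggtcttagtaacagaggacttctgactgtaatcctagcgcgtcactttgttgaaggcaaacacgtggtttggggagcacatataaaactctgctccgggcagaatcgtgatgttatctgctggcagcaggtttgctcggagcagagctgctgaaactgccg
Tgfbi: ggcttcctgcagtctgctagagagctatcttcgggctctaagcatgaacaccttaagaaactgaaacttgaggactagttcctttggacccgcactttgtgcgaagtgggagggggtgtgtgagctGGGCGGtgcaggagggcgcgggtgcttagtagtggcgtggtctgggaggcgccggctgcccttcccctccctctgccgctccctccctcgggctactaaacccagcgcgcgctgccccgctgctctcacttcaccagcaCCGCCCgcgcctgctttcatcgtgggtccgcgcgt
On either strand, the searched letters were GGGCGG (GC box), CAGACA (a SMAD element), TGANTCA (AP-1) and TGACGTCA (CRE). The *Tgfb1* window held 6 GC boxes, and the *Tgfbi* window held 2. The *Tgfb2* window held no GC box and 1 SMAD element. Among 32851 promoter windows of this length, 35.7% held a GC box, 7.81% an AP-1 match and 1.79% a CRE match, and 6913 held a SMAD element. No AP-1 or CRE letters occurred in these 3 windows. Such matches describe the sequence and are not binding sites.

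In the GENCODE M21 annotation of GRCm38, *Tgfb1* is a protein-coding gene at chr7:25687002-25705077, *Tgfb2* is at chr1:186622792-186705989 and *Tgfb3* is at chr12:86056745-86079041. *Tgfbr1* is at chr4:47353222-47414931 and *Tgfbr2* is at chr9:116084293-116175360. *Smad3* is at chr9:63646767-63757994 and *Tgfbi* is at chr13:56609523-56639562. The counts were made per gene and do not separate exons or transcripts.

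After filtering, 879 injured cells held 8499672 UMIs (median 6816 per cell) and 4159 uninjured cells held 15543460 (median 3343), and 7 cell barcodes occurred in both libraries. The filter removed cells from the injured library only. That library held 919 cells and 11817725 UMIs before it. Clustering without the 8 genes and the other pathway genes gave 12 clusters, of which 10 took a class name from marker genes. Injured and uninjured cells numbered 394 and 3098 in the astrocyte-like class, 129 and 32 in the microglia-like class, 135 and 31 in the ependymal-like class, and 59 and 98 in the fibroblast-like class. The endothelial-like class had 68 and 26 cells, and the oligodendrocyte precursor (OPC)-like class had 45 and 16. So the cells sorted as tdTomato-positive were not all astrocyte-like: this class made up 44.8% of injured and 74.5% of uninjured cells. Counts of the reporter itself by class are not given here. A UMI of *Xist*, which is expressed in female cells, was found in 28.7% of injured and 0.120% of uninjured cells. So the libraries differed in sex as well as in injury, although the study pooled females and males in each condition. Male-scored cells (a UMI of a Y-linked gene and none of *Xist*) numbered 315 and 2770, and values within them are given where they bear on a result.

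Levels are given as CPM, which is the UMIs of a gene scaled to a total of 1000000 UMIs over the cells of a class. They are compared for a gene between classes or conditions, not between genes. A ratio was called when it reached 2-fold and its interval left out 1, among genes with at least 20 UMIs over both libraries. This was done in the 4 classes with at least 30 cells in both conditions.

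By this rule, members were called only in microglia-like cells. There *Tgfbi* was called higher in injured cells and *Tgfb1*, *Tgfbr1* and *Smad3* were called lower. The 1 member called higher stood beside 4.1% of all genes called higher in this class, and the 3 called lower beside 10.9% called lower. In astrocyte-like cells 0 members were called higher and 0 lower, where 13.7% of all genes were called higher and 8.09% lower. By the interval alone, *Tgfb2* was higher and *Tgfbr1* and *Smad3* were lower in injured astrocyte-like cells. In ependymal-like cells 0 members were called in either direction (2.98% of all genes higher, 6.13% lower), and in fibroblast-like cells also 0 (10.1% higher, 8.08% lower). These counts of 0 depended on the cell filter. With no filter the fibroblast-like class had 97 injured and 100 uninjured cells, and *Tgfb2* was called higher and *Smad3* and *Tgfbi* lower. *Smad3* was then also called higher in ependymal-like cells.

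**Figure D1:**
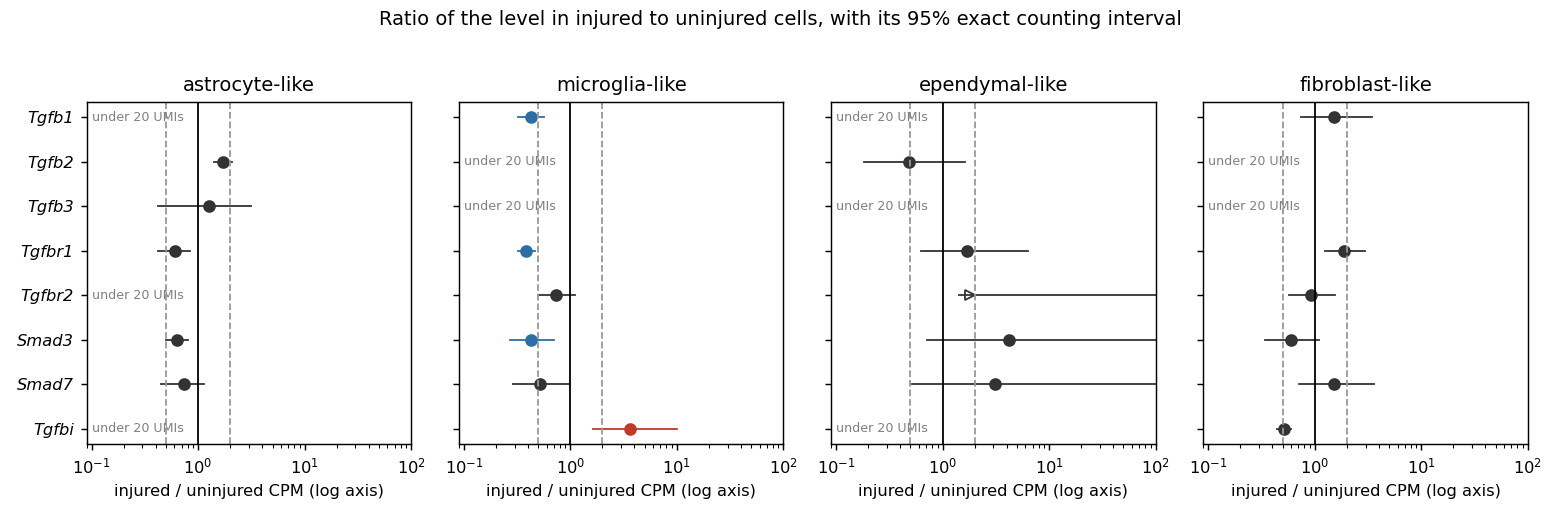
Ratio of the level in injured to uninjured cells (log axis) for the members with at least 20 UMIs in each of the 4 compared classes. Points are ratios and lines are 95% exact counting intervals, cut at the edge of the axis; dashed lines mark 2-fold, red is called higher, blue called lower, and the open triangle is the ratio to a limit of 3 counts because the uninjured count was 0. In microglia-like cells *Tgfb1*, *Tgfbr1* and *Smad3* lie below the lower dashed line and *Tgfbi* at 3.62 lies above the upper one.

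Among the ligands, *Tgfb1*, the isoform best known from immune and vascular cells, was highest in microglia-like cells. Its level there was 224 CPM with injury (203 to 247, 424 UMIs) and 528 CPM without (405 to 676, 62 UMIs). The ratio was 0.425 (0.325 to 0.564). It was found in endothelial-like cells at 117 CPM injured and 84.9 CPM uninjured (ratio 1.38, 0.692 to 3.11), and in fibroblast-like cells at 45.6 and 29.8 CPM (ratio 1.53, 0.746 to 3.45). Neither of these intervals left out 1. Astrocyte-like cells held almost none: 1 UMI in 394 injured cells (0.455 CPM) and 5 UMIs in 3098 uninjured cells (0.433 CPM).

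Ordered by level in injured cells, *Tgfb1* was 1.92 times higher (1.52 to 2.45) in microglia-like than in endothelial-like cells, and 2.56 times higher (1.72 to 3.87) in endothelial-like than in fibroblast-like cells. The OPC-like, ependymal-like and astrocyte-like classes came last, with 3, 3 and 1 UMIs, and neighbours among them did not differ beyond counting error. A *Tgfb1* UMI was found in 72.1% of injured microglia-like cells (63.5 to 79.6) and in 0.254% of injured astrocyte-like cells (0.00643 to 1.41), whose median depths were 13386 and 3811.5 UMIs. After each cell was thinned to 1000 UMIs, these shares were 19.8% (13.1 to 28.1) and 0%. In uninjured microglia-like cells, with a median depth of 3064.5 UMIs, the share was 53.1% (34.7 to 70.9), and 25.0% after thinning (10.7 to 44.9). The thinned intervals of injured and uninjured microglia-like cells thus overlapped. The lower CPM with injury is a smaller fraction of each total, not fewer UMIs per cell.

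*Tgfb2* had another distribution, with its highest values in endothelial-like and astrocyte-like cells, not all of them apart from the classes next in order. In astrocyte-like cells it was at 62.8 CPM after injury (52.7 to 74.2, 138 UMIs) and 36.8 CPM without (33.4 to 40.5, 425 UMIs). The injured level was 1.71 times the uninjured one (1.40 to 2.07), under the 2-fold limit. In this class 19.8% of injured and 11.9% of uninjured cells held a UMI, and 5.49% and 3.10% did after thinning to 1000 UMIs. Among male-scored cells alone the ratio's interval was 1.59 to 2.68, with a log2 ratio of CPM + 1 of 1.03, which passed the call rule.

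In endothelial-like cells, *Tgfb2* went the other way. It was at 283 CPM in 26 uninjured cells (191 to 404, 30 UMIs) and 61.7 CPM in 68 injured cells (45.2 to 82.4, 46 UMIs), a ratio of 0.218 (0.135 to 0.358). The class fell short of the cell number set for calls, so this is a value only. The mural markers also differed here, summing to 33.6 CPM injured (3 of 5 detected, *Pdgfrb* and *Kcnj8* at 0) and 896 CPM uninjured (5 of 5), as did the astrocyte markers, at 89.9 CPM injured (4 of 7) and 585 CPM uninjured (7 of 7). Without cells holding a mural marker UMI, an alternative chosen after seeing the data, *Tgfb2* was at 69.1 CPM over 61 injured cells and 339 CPM over 22 uninjured ones, a ratio of 0.204 (0.124 to 0.341). The part of the astrocyte markers was not tested. The uninjured endothelial-like level was 7.69 times that of uninjured astrocyte-like cells (5.12 to 11.1), while after injury the astrocyte-like level was 1.02 times the endothelial-like one (0.723 to 1.45), with no difference beyond counting error. Injured OPC-like cells had 42.1 CPM, and the injured endothelial-like level was 1.47 times theirs (0.949 to 2.27), within counting error. Ependymal-like cells had 15.3 CPM injured (26 UMIs) and 31.5 CPM uninjured (5 UMIs). The uninjured astrocyte-like level was 1.17 times the ependymal-like one (0.496 to 3.61), also within counting error. Microglia-like cells had 3.70 CPM injured (7 UMIs) and 0 UMIs uninjured.

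*Tgfb3* was scarce in every class. Its highest level was 13.6 CPM in injured fibroblast-like cells (6.77 to 24.3, 11 UMIs), beside 8.95 CPM in uninjured ones (3 UMIs). Astrocyte-like cells had 2.73 CPM injured (6 UMIs) and 2.17 CPM uninjured (25 UMIs), with a ratio of 1.26 (0.423 to 3.15). Microglia-like, endothelial-like and OPC-like cells had 0 UMIs in both conditions. For the 129 injured microglia-like cells this allows a share of cells with a UMI of up to 2.82%.

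**Figure D2:**
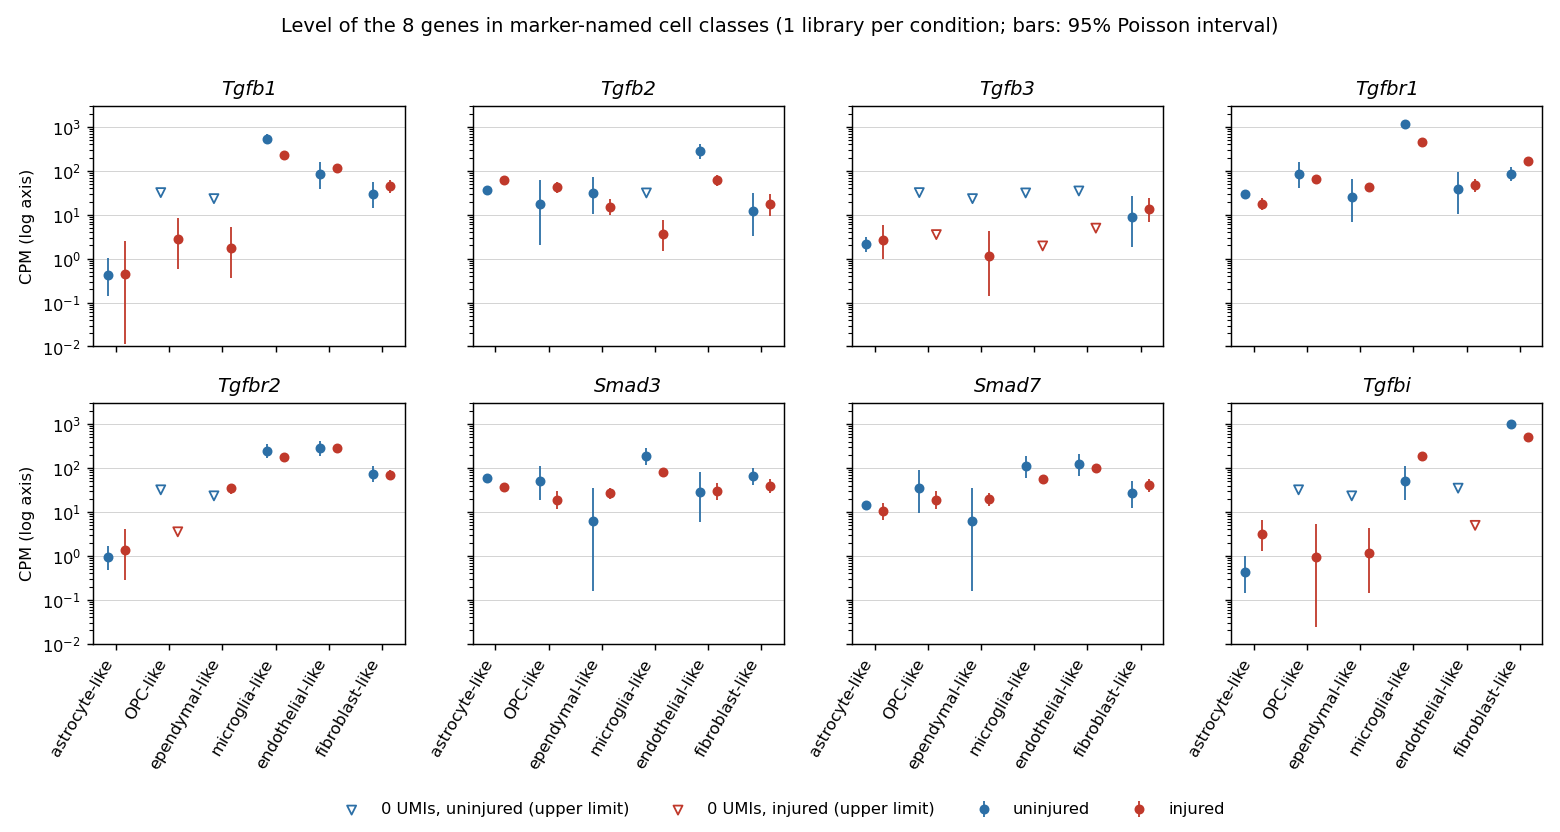
CPM (log axis) of each of the 8 genes in 6 marker-named classes, uninjured in blue and injured in red, with 1 library per condition. Points are CPM over the cells of a class, bars are 95% Poisson intervals, and open triangles are the upper limits of groups with 0 UMIs. *Tgfb1* and *Tgfbr2* lie near 1 CPM in astrocyte-like cells and above 100 CPM in microglia-like cells.

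The receptor chains were also unequally spread. *Tgfbr1*, the type I chain, was present in all 6 classes and was highest in microglia-like cells, at 448 CPM injured (419 to 479, 848 UMIs) and 1158 CPM uninjured (971 to 1369, 136 UMIs). The ratio of 0.387 (0.323 to 0.468) was called lower. With each cell's own CPM averaged, the levels were 516 and 991 CPM, short of 2-fold, and the call was lost. Fibroblast-like cells followed at 164 CPM injured (137 to 194) and 86.5 CPM uninjured (57.9 to 124), with a ratio of 1.90 (1.26 to 2.94) that fell short of 2-fold. In astrocyte-like cells the level was 17.7 CPM injured (12.6 to 24.3, 39 UMIs) and 29.4 CPM uninjured (26.4 to 32.8, 340 UMIs), a ratio of 0.603 (0.421 to 0.841). This astrocyte-like interval reached 0.455 to 1.12 among male-scored cells and so no longer left out 1. By level in injured cells, *Tgfbr1* was 2.73 times higher (2.27 to 3.31) in microglia-like than in fibroblast-like cells and 2.52 times higher (1.87 to 3.43) in fibroblast-like than in OPC-like cells. The OPC-like, endothelial-like and ependymal-like neighbours did not differ beyond counting error, and astrocyte-like cells were lowest, 2.39 times below ependymal-like cells (1.60 to 3.63). Without injury the step from microglia-like to fibroblast-like cells was 13.4 times (8.91 to 20.7), and no later neighbours were apart. The uninjured fibroblast-like level was still 2.94 times the astrocyte-like one (1.94 to 4.30), while the endothelial-like and ependymal-like intervals against astrocyte-like cells held 1.

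*Tgfbr2*, the ligand-binding type II chain, was close to absent from astrocyte-like cells in these counts. They held 3 UMIs in 394 injured cells (1.36 CPM, 0.281 to 3.99) and 11 UMIs in 3098 uninjured cells (0.953 CPM, 0.476 to 1.70). Endothelial-like cells held 286 CPM injured (249 to 327) and 283 CPM uninjured (191 to 404), a ratio of 1.01 (0.687 to 1.53). Microglia-like cells held 179 and 247 CPM, a ratio of 0.726 (0.496 to 1.10), and fibroblast-like cells 69.1 and 74.6 CPM, a ratio of 0.926 (0.568 to 1.55). The injured level in endothelial-like cells was 209 times that in astrocyte-like cells (70.7 to 1024), and the uninjured level 297 times (145 to 657). Endothelial-like cells stood above microglia-like cells by 1.60 times (1.34 to 1.90) after injury, but by 1.15 times (0.665 to 1.98), not beyond counting error, without.

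Ependymal-like cells differed from astrocyte-like cells in *Tgfbr2*. The 135 injured ependymal-like cells held 58 UMIs (34.2 CPM, 26.0 to 44.2), which was 25.1 times the injured astrocyte-like level (8.17 to 125). The 31 uninjured ependymal-like cells held 0 UMIs, which by the exact intervals allows up to 11.2% of them to carry a UMI and a level of up to 23.3 CPM. The injured level was 1.81 times a limit of 3 counts over the class (18.9 CPM), and the exact interval of the ratio began at 1.42. Median depth was 10862 UMIs in injured and 4362 in uninjured ependymal-like cells. After thinning to 1000 UMIs, 2.22% of injured and 0% of uninjured cells kept a *Tgfbr2* UMI, so the difference in shares was not detectable at that depth. *Tgfbr1* in this class was at 42.5 CPM injured (72 UMIs) and 25.2 CPM uninjured (4 UMIs), with a ratio of 1.68 (0.630 to 6.35).

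Both receptor chains were found together in the same cell in 0 of 394 astrocyte-like cells with injury and 0 of 3098 without, which allows shares of up to 0.932% and 0.119%. *Tgfbr1* without *Tgfbr2* was found in 30 and 276 of them, and *Tgfbr2* without *Tgfbr1* in 3 and 11. With *Tgfbr2* in so few cells, hardly any joint cells could be found. The counts of 0 therefore say nothing about the pairing of the chains beyond the scarcity of *Tgfbr2*. In microglia-like cells both chains were found in 64.3% of injured cells (55.4 to 72.6) and 37.5% of uninjured cells (21.1 to 56.3). In fibroblast-like cells the shares were 30.5% and 4.08%, in endothelial-like cells 29.4% and 11.5%, and in injured ependymal-like cells 10.4%. After thinning to 1000 UMIs only microglia-like cells kept both chains, in 7.44% of injured and 10.7% of uninjured cells. Such joint shares depend on the level of each chain and on depth.

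*Smad3*, which carries the receptor signal to the nucleus, was found in all 6 classes. In astrocyte-like cells it was at 37.3 CPM injured (29.7 to 46.3, 82 UMIs) and 58.7 CPM uninjured (54.4 to 63.3, 678 UMIs), a ratio of 0.635 (0.499 to 0.800). This interval was 0.576 to 1.07 among male-scored cells. In microglia-like cells it was at 80.3 CPM injured (68.1 to 94.2) and 187 CPM uninjured (117 to 283), and the ratio of 0.429 (0.273 to 0.705) was called lower. Fibroblast-like cells had 39.5 and 65.6 CPM (ratio 0.601, 0.339 to 1.09). Injured ependymal-like cells held 45 UMIs and uninjured ones 1 UMI, a ratio of 4.21 (0.718 to 170) that left the direction undetermined. Microglia-like cells had 2.04 times the level of fibroblast-like cells after injury (1.38 to 3.08) and 2.85 times without (1.51 to 5.40), and no later neighbours in the order were apart in either condition. Classes that were not neighbours could still differ. The injured OPC-like level was 0.513 times the astrocyte-like one (0.298 to 0.844). The uninjured ependymal-like level, from 1 UMI, was 0.107 times it (0.00272 to 0.601). The other classes below microglia-like cells had intervals against astrocyte-like cells that held 1.

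*Smad7*, the inhibitory member, was highest in endothelial-like cells, at 99.3 CPM injured (78.0 to 125) and 123 CPM uninjured (65.3 to 210). Microglia-like cells had 57.1 CPM injured (46.8 to 68.9) and 111 CPM uninjured (58.9 to 189), with a ratio of 0.516 (0.289 to 1.00). In astrocyte-like cells it was at 10.5 and 14.3 CPM, with a ratio of 0.732 (0.452 to 1.14). Fibroblast-like cells had 40.7 and 26.8 CPM (ratio 1.52, 0.710 to 3.60), and ependymal-like cells had 33 UMIs injured and 1 UMI uninjured (ratio 3.09, 0.517 to 126). No *Smad7* ratio was called in any class. The endothelial-like level was 1.74 times the microglia-like one after injury (1.28 to 2.36), while without injury the step of 1.11 times (0.473 to 2.60) was within counting error.

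*Tgfbi*, a secreted matrix protein named for its induction by TGF-β, was highest in fibroblast-like cells and second in microglia-like cells. In fibroblast-like cells it was at 508 CPM injured (460 to 560, 412 UMIs) and 993 CPM uninjured (889 to 1106, 333 UMIs), a ratio of 0.512 (0.442 to 0.593) just short of the 2-fold limit. A UMI was found in 67.8% of injured and 79.6% of uninjured cells, and in 27.3% and 65.9% after thinning. The richest injured cell held 59 of the 412 UMIs, and without the richest cell of each condition the ratio's interval was 0.406 to 0.553 and passed the call rule. The mixture within the class also differed: 14 of 59 injured and 3 of 98 uninjured fibroblast-like cells carried *Rgs5*, a mural cell gene. Without them *Tgfbi* was at 563 CPM injured and 1014 CPM uninjured. All 6 fibroblast markers were detected in both conditions, summing to 9711 CPM injured and 24966 CPM uninjured, while the 5 mural markers summed to 2222 and 1798 CPM. Without *Vtn*, which also ranked among the top genes of this cluster, the other 4 mural markers summed to 930 CPM injured and 254 CPM uninjured.

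In microglia-like cells *Tgfbi* was at 185 CPM injured (166 to 205, 350 UMIs) and 51.1 CPM uninjured (18.7 to 111, 6 UMIs), a ratio of 3.62 (1.65 to 9.94). It was found in 67.4% of injured and 12.5% of uninjured cells, and in 17.4% and 3.57% after thinning. Astrocyte-like cells held 7 UMIs injured (3.18 CPM) and 5 UMIs uninjured (0.433 CPM), a ratio of 7.35 (2.01 to 29.4) on a gene too scarce for the call rule. Endothelial-like cells held 0 UMIs in both conditions. The step from fibroblast-like down to microglia-like cells was thus 19.4 times without injury (8.84 to 53.4) and 2.75 times with it (2.38 to 3.18).

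The microglia-like class of the injured cord held UMIs of both resident and infiltrating myeloid markers. Whether these marked separate kinds of cell was not tested. The 4 resident markers (*P2ry12*, *Tmem119*, *Siglech*, *Sall1*) summed to 585 CPM injured and 1668 CPM uninjured, and all 4 were detected in both. The 5 infiltrating markers (*Ccr2*, *Ly6c2*, *Plac8*, *Chil3*, *Arg1*) summed to 563 CPM injured and 25.5 CPM uninjured, where *Ccr2*, *Ly6c2* and *Arg1* were at 0. Neutrophil markers summed to 420 CPM injured, with *Ly6g* and *Retnlg* at 0, and to 0 CPM uninjured. Among injured cells 73 carried resident markers only, 23 infiltrating markers only, 22 both kinds and 11 neither. Among uninjured cells 24 carried resident markers only. *Sall1* was not particular to this class: injured ependymal-like cells had 86.7 CPM and injured astrocyte-like cells 38.2 CPM, beside 46.0 CPM in injured microglia-like cells. Since 1 UMI of any marker placed a cell and no doublets were removed, these groups can include cells placed by *Sall1* alone.

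The members divided along this line. *Tgfbi* was at 84.8 CPM in injured cells with resident markers only and 482 CPM in those with infiltrating markers only, a ratio of 0.176 (0.135 to 0.228). *Tgfbr1* was at 541 against 196 CPM, 2.76 times higher in the resident-marker cells (2.13 to 3.64). *Smad7* was 3.13 times higher there (1.52 to 7.47), *Smad3* 2.88 times (1.55 to 5.94), *Tgfbr2* 2.02 times (1.42 to 2.97) and *Tgfb1* 1.58 times (1.15 to 2.21). So all 6 of the genes detected well in this class differed between its marker-defined portions, 5 of them in the direction opposite to *Tgfbi*. The median depths of these portions were 15606 and 14079 UMIs.

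Within cells carrying resident markers only, the difference between conditions was still present in value. *Tgfb1* was at 226 CPM over the 73 injured cells and 647 CPM over the 24 uninjured ones (ratio 0.349, 0.259 to 0.479). *Tgfbr1* had a ratio of 0.357 (0.294 to 0.437) and *Smad3* a ratio of 0.426 (0.260 to 0.733). *Tgfbi* had 98 UMIs injured and 1 UMI uninjured (ratio 6.95, 1.22 to 277). *Tgfbr2* (0.751, 0.493 to 1.19) and *Smad7* (0.580, 0.309 to 1.20) had intervals that held 1. The split was chosen after the values of the class were seen. Among male-scored microglia-like cells (60 injured and 14 uninjured) the same 4 members were called in the same directions.

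**Figure D3:**
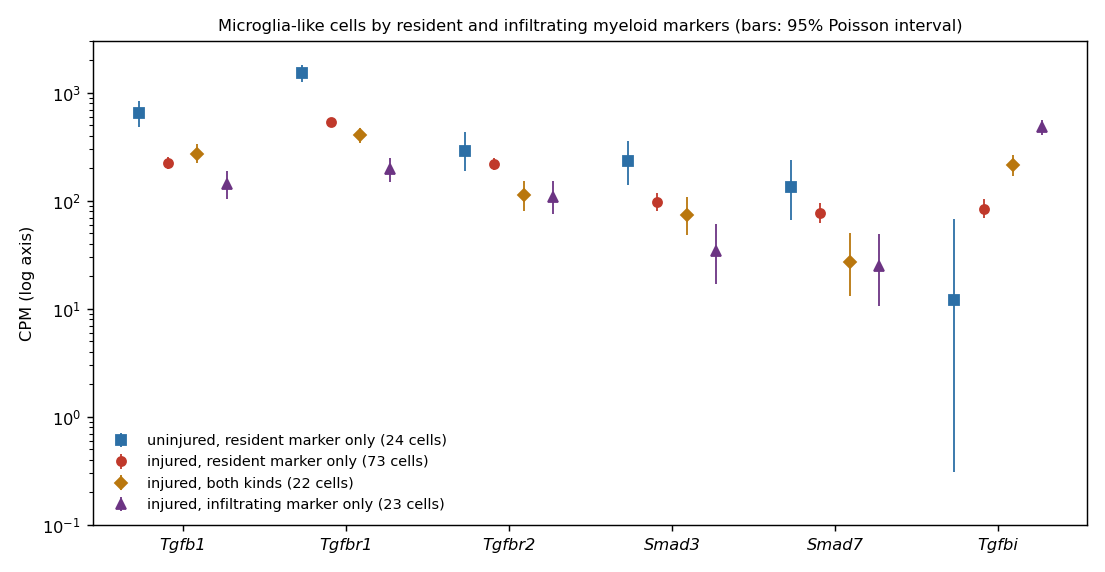
CPM (log axis) of 6 members in microglia-like cells grouped by the resident and infiltrating markers they carried, with 95% Poisson intervals. Blue squares are uninjured cells with resident markers only (24), red circles the injured ones (73), orange diamonds injured cells with both kinds (22) and purple triangles injured cells with infiltrating markers only (23). *Tgfbi* increases from blue to purple, from 12.2 to 482 CPM, while *Tgfbr1* decreases from 1513 to 196 CPM.

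Astrocyte-like cells formed 5 clusters. Cluster 3, led by *Gfap*, *Lcn2* and *Timp1*, genes of reactive astrocytes, held 79.4% of the injured cells of this class and 0.258% of the uninjured ones, so most of the comparison between conditions was also a comparison between clusters. *Tgfb2* was at 58.7 CPM in injured cells of cluster 3 (48.3 to 70.6). In cluster 7, led by *Hopx* and *Hes5*, it was at 115 CPM in 32 injured cells (70.5 to 178) and 53.2 CPM in 980 uninjured cells (46.4 to 60.8), a ratio of 2.17 (1.30 to 3.43). In cluster 4 it was at 66.6 CPM over 43 injured cells and 24.4 CPM over 822 uninjured ones, a ratio of 2.73 (0.959 to 6.37). Uninjured cells of clusters 10 and 11 had 22.4 and 42.0 CPM. *Tgfb2* thus varied among uninjured clusters from 22.4 to 53.2 CPM, with intervals of cluster 7 and cluster 10 that did not overlap.

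*Tgfbr1* and *Smad3* varied less among uninjured astrocyte-like clusters, from 22.4 to 35.6 CPM and from 50.9 to 78.4 CPM. The *Smad3* intervals of cluster 4 (66.8 to 91.3) and cluster 7 (44.3 to 58.4) still did not overlap. In cluster 7 the injured to uninjured ratio was 1.07 for *Tgfbr1* (0.384 to 2.38) and 0.453 for *Smad3* (0.122 to 1.18). In cluster 4 it was 0.369 for *Tgfbr1* (0.00919 to 2.13, 1 injured UMI) and 0.425 for *Smad3* (0.0868 to 1.26, 3 injured UMIs). Injured astrocyte-like cells with a UMI of *Lcn2* or *Timp1* (174 cells) and without (220 cells) had *Tgfb2* at 62.6 and 63.0 CPM, a ratio of 0.994 (0.700 to 1.42). The same ratio was 1.47 for *Smad3* (0.911 to 2.42) and 0.841 for *Tgfbr1* (0.427 to 1.67), and the members with enough UMIs did not differ by this split beyond counting error. The median depths of the 2 sides were 4825.5 and 2909.5 UMIs. Cluster 3 held 313 injured cells, more than the 174 with such a UMI, so this split does not part reactive from other cells.

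**Figure D4:**
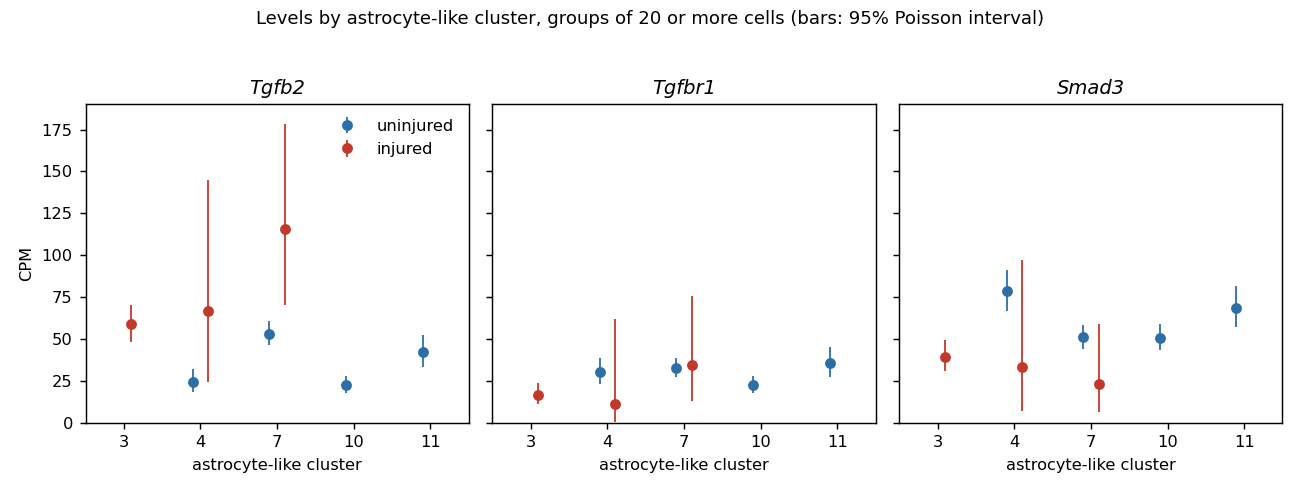
CPM of *Tgfb2*, *Tgfbr1* and *Smad3* in the astrocyte-like clusters, uninjured in blue and injured in red, for groups of at least 20 cells, with 95% Poisson intervals. Injured *Tgfb2* lies above uninjured *Tgfb2* in clusters 4 and 7, at 66.6 over 24.4 CPM, where the interval of the ratio held 1, and 115 over 53.2 CPM.

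The rest of the pathway in astrocyte-like cells was read from 5 lists with 53 genes, of which 40 had enough UMIs. Of these, 7 were called higher and 2 lower in injured cells, beside the 13.7% and 8.09% of all genes. Their median log2 ratio of CPM + 1 was -0.25, and that of all 13366 genes was -0.01. These lists were chosen with earlier results of the same libraries known, so a list's counts are not independent evidence of its direction.

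Among the 12 known target genes 7 had enough UMIs, and 4 of them were called higher and 0 lower, with a median log2 ratio of 2.24. *Tagln*, an actin-binding protein of contractile cells, was at 122 CPM injured and 0.520 CPM uninjured (268 and 6 UMIs). *Fn1*, the matrix protein fibronectin, was at 22.3 and 0.173 CPM (49 and 2 UMIs). *Junb*, a subunit of AP-1, was at 40.5 and 7.45 CPM, a ratio of 5.44 (3.996 to 7.40), and *Ccn1*, a secreted matrix-associated protein, was at 65.1 and 13.0 CPM, a ratio of 5.01 (3.95 to 6.34). The other tested targets, *Col1a1*, *Col1a2* and *Bhlhe40*, had ratios of 0.666, 1.43 and 0.570. In the same cells the fibroblast markers summed to 16.8 CPM injured and 7.19 CPM uninjured, with *Slc6a13* and *Slc6a20a* at 0 in injured cells, and the mural markers to 23.7 and 43.5 CPM.

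In the other lists calls were fewer in share or went both ways. Of 14 tested genes of the BMP and activin branch, 2 were called higher: *Id1*, at 61.4 and 6.32 CPM (ratio 9.71), and *Id3*, at 210 and 104 CPM (ratio 2.02). Both encode inhibitors of DNA binding and are known targets of BMP signalling. The 2 called lower were the activin type II receptors *Acvr2a* (ratio 0.490) and *Acvr2b* (ratio 0.289). Of 10 transducers and brakes 1 was called higher, the repressor *Tgif1*, at 14.1 and 4.85 CPM (ratio 2.91), and 0 lower. The 7 tested genes of latency and activation and the 2 tested co-receptors held 0 calls, among them *Itgb8*, an integrin subunit that releases active TGF-β, at 378 and 336 CPM.

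**Figure D5:**
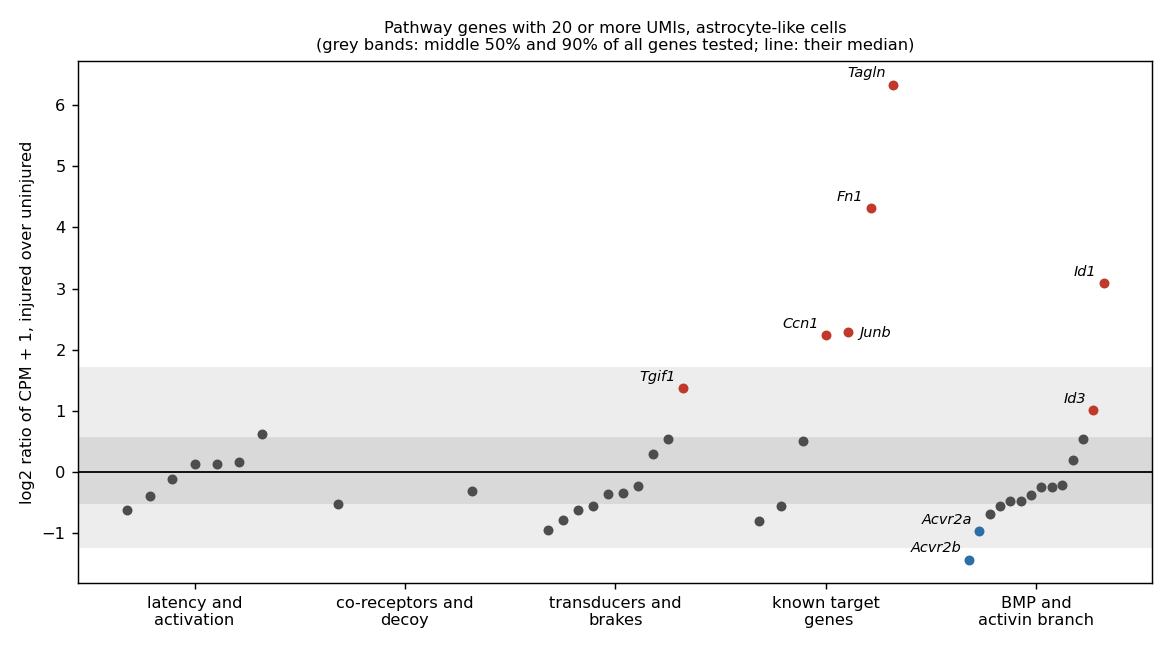
Log2 ratio of CPM + 1, injured over uninjured, in astrocyte-like cells for the 40 pathway genes with at least 20 UMIs, by list. Each point is a gene, named and coloured where called (red higher, blue lower); the grey bands hold the middle 50% and 90% of all 13366 genes tested and the line is their median. *Tagln*, *Fn1*, *Junb*, *Ccn1* and *Id1* lie above the bands, and *Acvr2b* lies below them.

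For the 7 members with enough UMIs, the genes with the most similar pattern were sought by Pearson correlation of log2(CPM + 10) over the 11 class and condition groups of at least 20 cells, among 8731 genes. *Tgfb1* was closest to *Vasp* (r = 0.98) and *Map2k3* (r = 0.98), *Tgfbr1* to *Mob3a* (r = 0.99), and *Tgfbi* to *Igf1* (r = 0.99) and *Abca9* (r = 0.98). *Tgfb2* was closest to *Caskin2* (r = 0.95) and *Emp2* (r = 0.92), and *Tgfbr2* to *Wasf2* (r = 0.96) and *Fosl2* (r = 0.95). *Smad3* was closest to *Mgrn1* (r = 0.93) and *Maml1* (r = 0.93), and *Smad7* to *Myo1c* (r = 0.97) and *Piezo1* (r = 0.97). The groups share 2 libraries and differ in depth, so these values describe a likeness of levels across few points.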

How the data were processed

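Sorted tdTomato-positive cells of 1 injured and 1 uninjured pool were measured. The authors deposited raw UMI counts per gene and cell, not normalized. Per the file headers they came from Cell Ranger 7.1.0, while the submitters' processing notes name Cell Ranger 8.0.1 and mm10. Cells with more than 500 and fewer than 50000 UMIs were kept, scaled to 10000, log transformed and clustered on 2000 variable genes (15 components, 15 neighbours, Leiden resolution 0.5) with scanpy 1.11.5, igraph 0.11.9 and Python 3.11.15. The 8 members and 53 pathway genes were left out of the genes used for clustering. A cluster was named from the highest mean marker score above 0.2, with at least 3 markers found in 10% of its cells and no other class with more markers among its top 10 genes. Clusters with astrocyte and neuron markers (2, with 49 injured and 858 uninjured cells) stayed unnamed. Of 32285 Ensembl identifiers 32158 (99.6%) matched GENCODE M21, and promoter sequences are from RefSeq. No doublets were removed. Scrublet served as an alternative, by leaving out its top 5% of scores in each library.

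Levels have exact Poisson intervals, shares have Clopper-Pearson intervals, and ratios have exact binomial intervals conditional on the summed count (SciPy 1.17.1), all at 95%. For a ratio to a group at 0, that group was set at a limit of 3 counts. The code was tested on simulated data. No test between conditions, and no p-value, was computed, since each condition had 1 library. Depth limits the smaller classes: 1 UMI is worth 8.51 CPM in the uninjured microglia-like class and 0.0866 CPM in the uninjured astrocyte-like class. The members, lists and tests were chosen with earlier results of these data known. Named are the 8 members, for each list the genes past the call rule in astrocyte-like cells (at most 4 higher and 4 lower), and the 2 genes most like each member. Some genes that these rules reach are not reported here. Pathway genes named for other classes, and the uncalled genes named beside their lists, were chosen after their values were seen.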

Additional observations from a re-analysis of the deposited data

Results flagged for a closer look

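*Tgfbr1* was marked because it differed in direction between classes under the same contrast. Its log2 ratio of CPM + 1, injured over uninjured, was 0.92 in fibroblast-like cells (0.9152), and it was -0.70 for the astrocyte-like class and -1.37 for the microglia-like class (-1.3667). Each of these 3 ratios had a counting interval that left out 1, and in male-scored astrocyte-like cells the interval held 1. *Tgfbi* was marked for the same reason, at 1.84 in microglia-like cells (1.8369) and -0.97 in fibroblast-like cells (-0.9658). With 1 library per condition the differences between classes were not tested.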

How the results depend on the processing

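No paired analysis was possible because there was only 1 gene expression library for either condition, and no library could be left out. In microglia-like cells, 1 member was called higher under every alternative run, and 3 were called lower except with the mean of per-cell CPM, which left 2 (*Tgfb1*, *Smad3*) and put the log2 ratio of *Tgfbr1* at -0.94. Of 208 recomputed log2 ratios of members, 203 moved by less than the counting interval, 5 moved further, and no called one changed sign. The uncalled astrocyte-like *Tgfbr1* ratio moved from -0.70 to 0.08 among cells with an *Aldh1l1* UMI, a set that also held cells of other classes, where 3 members (*Tgfb1*, *Tgfbr2*, *Tgfbi*) were called higher. With no fold required, the counts were 1 higher and 2 lower in astrocyte-like cells, 1 higher in ependymal-like cells, 1 higher and 1 lower in fibroblast-like cells, and 12 pathway genes higher and 17 lower in astrocyte-like cells. With no cell filter, 1 member was called higher in ependymal-like cells (*Smad3*), and 1 higher (*Tgfb2*) and 2 lower (*Smad3*, *Tgfbi*) in fibroblast-like cells, which then numbered 97 and 100. With the mean of per-cell CPM, 1 was called lower in astrocyte-like cells (*Tgfbr1*) and 1 in fibroblast-like cells (*Tgfbi*). Among male-scored cells, 1 was called higher in astrocyte-like (*Tgfb2*) and 1 higher (*Tgfbr1*) and 1 lower (*Tgfbi*) in fibroblast-like cells. With no minimum of UMIs, 1 was called higher in astrocyte-like cells (*Tgfbi*). In fibroblast-like cells, 1 was called lower without the highest Scrublet scores (*Smad3*) and 1 without the richest cell (*Tgfbi*), the latter an alternative added after seeing the data. The causes were not tested.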

Other observations

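In fibroblast-like cells 44 of the 53 pathway genes had enough UMIs, and 11 were called higher and 4 lower in injured cells, beside 10.1% and 8.08% of all genes. The known target genes gave 5 of those called higher. *Acta2*, an actin of myofibroblasts and mural cells, was at 54.3 CPM injured and 2.98 CPM uninjured. *Postn*, a matrix protein of scars, was at 24.7 and 2.98 CPM. The uninjured level of each rested on 1 UMI. *Pmepa1*, a brake on the pathway, was at 455 and 107 CPM, a ratio of 4.24 (3.01 to 6.15). *Inhba*, an activin subunit, was at 58.0 and 5.96 CPM, a ratio of 9.72 (2.54 to 82.6). Mural markers other than *Vtn* were higher in the same cells, at 930 CPM injured and 254 CPM uninjured. Without cells holding an *Rgs5* UMI, an alternative chosen after seeing the data, 45 injured and 95 uninjured cells were left. There *Acta2* was at 37.3 and 3.04 CPM (27 and 1 UMIs, ratio interval 2.02 to 501). *Postn* was at 26.2 and 3.04 CPM (19 and 1 UMIs, 1.37 to 358). *Pmepa1* was at 504 and 107 CPM, and *Inhba* at 64.8 and 6.09 CPM (47 and 2 UMIs, 2.79 to 90.5). *Tgfbi* in the same class was lower in value, at 508 and 993 CPM.

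In microglia-like cells 30 pathway genes had enough UMIs, with 2 called higher and 6 lower, beside 4.1% and 10.9% of all genes. *Fn1* was at 251 CPM injured and 8.51 CPM uninjured (1 UMI), and *Thbs1*, which can release latent TGF-β, was at 166 and 42.6 CPM. *Skil*, a repressor of SMAD complexes, was at 214 and 715 CPM, a ratio of 0.299 (0.236 to 0.383), and *Nrros*, which anchors latent TGF-β on microglia, was at 161 and 357 CPM. In ependymal-like cells 33 had enough UMIs, with 4 called higher and 5 lower, beside 2.98% and 6.13% of all genes. *Acvr1* and *Smad1*, a BMP receptor and its transducer, had ratios of 3.40 and 3.46, while *Bmpr1b*, another BMP receptor, and *Inhba* were called lower, with ratios of 0.230 (0.137 to 0.396) and 0.281 (0.107 to 0.864). *Junb* had a ratio of 0.242 (0.187 to 0.317) there and 0.299 (0.262 to 0.341) in microglia-like cells, beside 5.44 in astrocyte-like cells, and these differences were not tested.

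The 2 unnamed clusters held *Tgfb2* at 78.9 CPM in 49 injured cells (36.1 to 150) and 32.2 CPM in 858 uninjured cells (26.3 to 39.1). *Tgfbr2* was at 1 UMI in the injured and 0 UMIs in the uninjured cells of these clusters.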
